A study of Caenorhabditis elegans with 12 samples.

Results

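Sites bound by both BLMP-1 and ZFP-1 were examined in wild-type (N2) larvae of Caenorhabditis elegans at the L3 stage, using peaks from ChIP-seq, which maps where a protein sits on DNA by sequencing the fragments its antibody pulls down. Peaks of 6 proteins (BLMP-1, ZFP-1, TOP-2, SIN-3, SCC-1 and JMJD-2) were pooled, and peaks sharing at least 1 bp were merged into 5870 intervals. Of these, 230 held a BLMP-1 and a ZFP-1 peak together with at most 1 of SIN-3, SCC-1 and JMJD-2, and these 230 intervals are called shared sites here. They were thus chosen by the measured overlap of the peaks themselves. They were set against 724 intervals with BLMP-1 and without ZFP-1 (BLMP-1-only sites) and 2197 with ZFP-1 and without BLMP-1 (ZFP-1-only sites), either of which may hold any of the other 4 proteins. The study made 12 samples, 2 replicates for each protein, all from untreated wild-type animals, so the 6 groups differ in the protein precipitated and not in genotype or treatment. Chromatin came from entire larvae raised in liquid culture, so peaks of both proteins at a shared site may stem from different tissues. The authors combined the replicates before deposit, and the lists give positions in the ce10 assembly with no height or P-value. Depth and the error between replicates are thus unknown, and the 95% intervals given below, exact Clopper-Pearson for shares and exact conditional for odds ratios, cover counting error over sites only.

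BLMP-1 is a zinc finger transcription factor with a PR domain, the worm counterpart of mammalian Blimp-1, and is known as a regulator of developmental timing and of the epidermis in larvae. ZFP-1 is a PHD finger protein, the counterpart of mammalian AF10, and is known as a partner of a histone methyltransferase of the Dot1 family at transcribed genes and from work on RNA interference. Of the other proteins, JMJD-2 is a histone demethylase, SIN-3 is a scaffold of histone deacetylase complexes, SCC-1 is a subunit of cohesin, and TOP-2 is a type II topoisomerase.

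The shared sites made up a larger part of the BLMP-1 list than of the ZFP-1 list. They were 23.4% of the 982 intervals with BLMP-1 and 9.37% of the 2455 intervals with ZFP-1. The same sites are counted in both shares, so this difference follows from the sizes of the lists alone. A further 28 intervals with both proteins held at least 2 of SIN-3, SCC-1 and JMJD-2 and were left out by the rule, 13 of them with 2 of these proteins and 15 with all 3. Counting them in, both proteins met in 258 intervals. These counts follow from the rule and are given as a description.

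The peaks of BLMP-1 and ZFP-1 lay close on top of each other at the shared sites. The rule asked for peaks merged through shared bases and most peaks are short, so midpoints close together were largely built in. The overlaps and distances are given as a description. All 230 had a BLMP-1 peak in direct contact with a ZFP-1 peak, and none was joined only through a peak of another protein. The shared stretch ranged from 56 to 458 bp, with a median of 241 bp and quartiles of 219 and 262 bp. The median share covered by the other peak was 99.7% for the ZFP-1 peak and 61.0% for the BLMP-1 peak. The midpoints of both peaks were at most 50 bp apart at 113 sites (49.1%), at most 100 bp at 167 (72.6%) and at most 250 bp at 219 (95.2%). Their median distance was 52.2 bp. Where a site held several ZFP-1 peaks, overlaps are from the pair with the most shared bases and distances from the pair with the closest midpoints. The ZFP-1 midpoint lay to the right of the BLMP-1 midpoint, toward higher coordinates, at 118 sites and to the left at 112, so the offset had no common side. Since genes were not assigned, the side relative to a gene is not known.

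**Figure D1:**
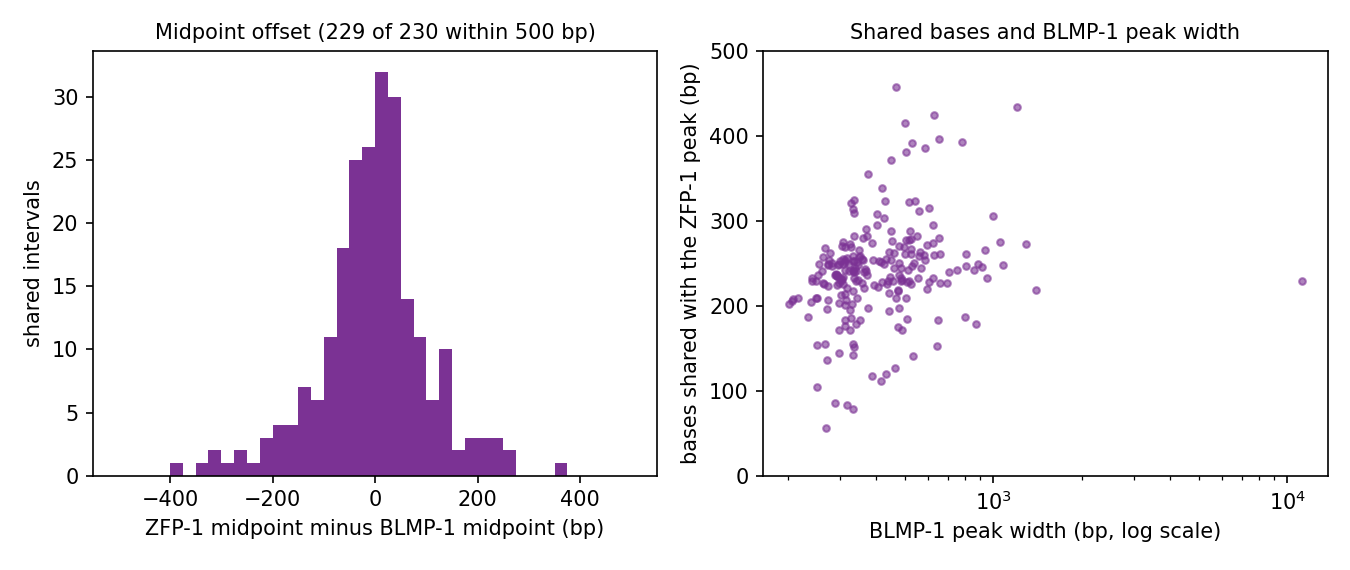
Left, number of shared sites (y axis) by the distance in bp from the BLMP-1 midpoint to the ZFP-1 midpoint (x axis, bins of 25 bp); right, bases shared by both peaks in bp (y axis) against the width of the BLMP-1 peak in bp (x axis, log scale), with 1 point per shared site. Distances center near 0 and 229 of 230 lie within 500 bp, which the rule largely sets by asking for merged peaks. The shared stretch stays between 56 and 458 bp even at the widest BLMP-1 peak of 11192 bp.

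The ZFP-1 peak lay wholly inside the BLMP-1 peak at 114 sites, the BLMP-1 peak inside the ZFP-1 peak at 4, and the peaks were staggered at 112, with ZFP-1 to the left at 56 and to the right at 56. Over the entire lists, BLMP-1 peaks had a median width of 336 bp and ZFP-1 peaks one of 251 bp. Whether the widths account for the arrangement was not tested. Only the BLMP-1 list was called with MACS2, against YAPC for the other 5 proteins, so tool and protein cannot be told apart. BLMP-1 peaks had a median width of 371 bp at shared sites and 326.5 bp at BLMP-1-only sites. ZFP-1 peaks had a median width of 254 bp at shared sites and 251 bp at ZFP-1-only sites. A wider peak is more likely to meet another peak, so the widths are bound up with the rule and were not tested. Very wide BLMP-1 peaks did not follow this order. Peaks over 1 kb were 6 of 230 (2.61%) at shared sites and 41 of 724 (5.66%) at BLMP-1-only sites.

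Of the sites at the ends of these ranges, the most shared bases were found on II from 11635515 to 11636119, where a ZFP-1 peak of 595 bp, the widest of that list, shared 458 bp with a BLMP-1 peak of 468 bp and a SIN-3 peak was also present. Next were sites on X from 17479449 to 17480701 with 434 shared bases and on I from 9343686 to 9344315 with 425. The fewest shared bases were on IV from 5805476 to 5805955 (56 bp), on IV from 5703838 to 5704304 (79 bp) and on I from 11782253 to 11782707 (83 bp). Just outside the rule, the closest BLMP-1-only and ZFP-1-only sites had peaks 42 bp apart on II (BLMP-1 from 6844489 to 6844798, ZFP-1 from 6844199 to 6844446), 58 bp apart on IV (BLMP-1 from 4660318 to 4660575, ZFP-1 from 4660634 to 4660875) and 69 bp apart on I (BLMP-1 from 4935931 to 4936192, ZFP-1 from 4936262 to 4936520). There were 5 such pairs at most 100 bp apart and 14 at most 250 bp apart. The closest midpoints were 0.5 bp apart on X from 8231717 to 8232034, 1 bp apart on IV from 4028213 to 4028548 and 1.5 bp apart at the site on I from 9343686 to 9344315 given above.

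The longest shared site covered 11192 bp on I from 15060222 to 15071413 and was the widest peak of the BLMP-1 list. Its ZFP-1 peaks, 2 in number, filled little of it, and the larger overlap was 230 bp (2.06% of the BLMP-1 peak), with the midpoints 2460 bp apart. The right end of I carries the large ribosomal RNA gene array in C. elegans, and whether this site lies in the array was not tested. The next longest were on X from 15274786 to 15276263 (1478 bp) and on X from 9552242 to 9553537 (1296 bp). In all, 9 shared sites held 2 ZFP-1 peaks with 1 BLMP-1 peak, and the other 221 held 1 peak of each.

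Few of the shared sites carried a peak of a further protein. No other protein was present at 189 (82.2%), compared with 665 of the 724 BLMP-1-only sites (91.9%) and 1811 of the 2197 ZFP-1-only sites (82.4%). Because the rule limits SIN-3, SCC-1 and JMJD-2 at shared sites and not in the other classes, these shares were not tested. SIN-3 was the further protein at 18 shared sites (7.83%), JMJD-2 at 16 (6.96%) and SCC-1 at 5 (2.17%), adding up to the 39 shared sites with 1 of these 3 proteins. Sites with exactly 1 of the 3 can be set side by side, since the rule does not say which one is present. JMJD-2 was that protein at 41.0% of 39 shared sites (interval 25.6% to 57.9%), 25.8% of 31 BLMP-1-only sites (11.9% to 44.6%) and 28.1% of 224 ZFP-1-only sites (22.3% to 34.5%). SCC-1 was that protein at 12.8% of the shared sites, 22.6% of the BLMP-1-only sites and 17.9% of the ZFP-1-only sites. With these counts the intervals overlap widely.

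TOP-2, which the rule does not limit, was present at 3 shared sites (1.30%, interval 0.27% to 3.76%), at 2 BLMP-1-only sites (0.276%, 0.0335% to 0.994%) and at 49 ZFP-1-only sites (2.23%, 1.65% to 2.94%). The 3 shared sites with TOP-2 were on IV from 4028213 to 4028548, on X from 2432410 to 2432881 and on X from 15274786 to 15276263. The last of these also held JMJD-2 and 2 ZFP-1 peaks, and it was the shared site with the most proteins. At the first 2 of these sites the BLMP-1 and ZFP-1 midpoints were 1 and 16 bp apart.

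The median distance between the BLMP-1 and ZFP-1 midpoints was 49.5 bp at the 191 sites with none of the 3 proteins, 52.2 bp at the 16 with JMJD-2, 59.0 bp at the 5 with SCC-1 and 63.8 bp at the 18 with SIN-3. The shared stretch had medians of 245, 220, 230 and 228.5 bp in the same order. On X lay 35 of the 191 sites without the 3 proteins, 5 of the 16 with JMJD-2, 2 of the 18 with SIN-3 and none of the 5 with SCC-1. The last 3 groups are too small to set their shares apart, and no test was made between them.

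Shared sites were found on all 6 chromosomes. I held 44 of them, IV and X 42 each, III 36, V 34 and II 32. The density was 2.30 sites per Mb over the length spanned by the lists and ranged between 1.63 per Mb on V and 2.92 per Mb on I. On X lay 18.3% of shared sites (interval 13.5% to 23.9%), 21.8% of BLMP-1-only sites (18.9% to 25%) and 18.6% of ZFP-1-only sites (17% to 20.3%), while X makes up 17.7% of the length. Neither difference passed the test. The odds ratio was 0.80 against BLMP-1-only sites (interval 0.53 to 1.18) and 0.98 against ZFP-1-only sites (0.67 to 1.40), with adjusted p = 1 for both (two-sided Fisher's exact test, adjusted by Benjamini-Hochberg over 4 tests of position). The share of BLMP-1 intervals that were shared sites ran from 20.6% on X (interval 15.3% to 26.8%) to 30.2% on IV (22.7% to 38.6%), and these intervals overlap. Among ZFP-1 intervals it ran from 8.41% on III to 10.1% on IV.

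**Figure D2:**
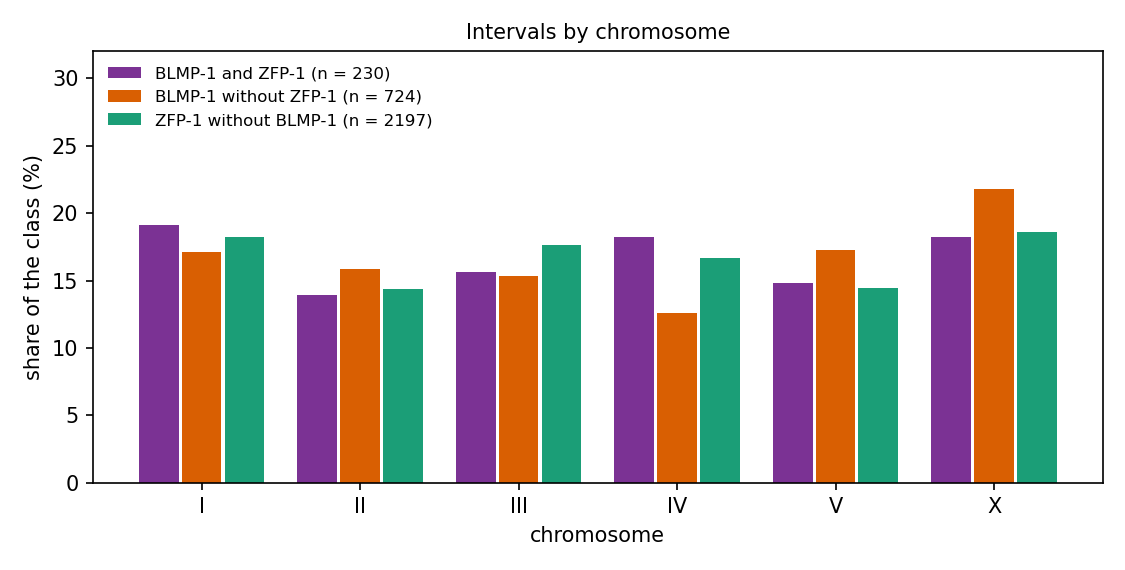
Share of each class in percent (y axis) on each chromosome (x axis), with bars for the 230 shared sites, the 724 BLMP-1-only sites and the 2197 ZFP-1-only sites. X holds 18.3% of shared sites, 21.8% of BLMP-1-only sites and 18.6% of ZFP-1-only sites.

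C. elegans autosomes have gene-dense centers and arms rich in repeats. The outer 33.3% on either side was taken as an arm, so arms made up most of the length of an autosome. On arms lay 111 of 188 autosomal shared sites (59.0%, interval 51.7% to 66.1%), compared with 59.5% of 566 BLMP-1-only sites and 60.9% of 1788 ZFP-1-only sites. All these shares were below the part of the length that arms made up, so they do not show a preference for arms. The difference from that part was not tested. The odds ratios were 0.98 (interval 0.69 to 1.39) and 0.93 (0.67 to 1.27), and neither passed the test (adjusted p = 1 for both, Fisher's exact test). With each autosome cut into 10 bins of equal length, shared sites were most frequent in bin 7 from the left, with 37 sites (19.7%), where 11.5% of BLMP-1-only sites and 12.8% of ZFP-1-only sites lay. Bin 7 held 9 of the 44 shared sites on I, 8 of 42 on IV, 7 of 36 on III, 7 of 34 on V and 6 of 32 on II. This bin was picked as the highest after the values were seen, and the difference was not tested.

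**Figure D3:**
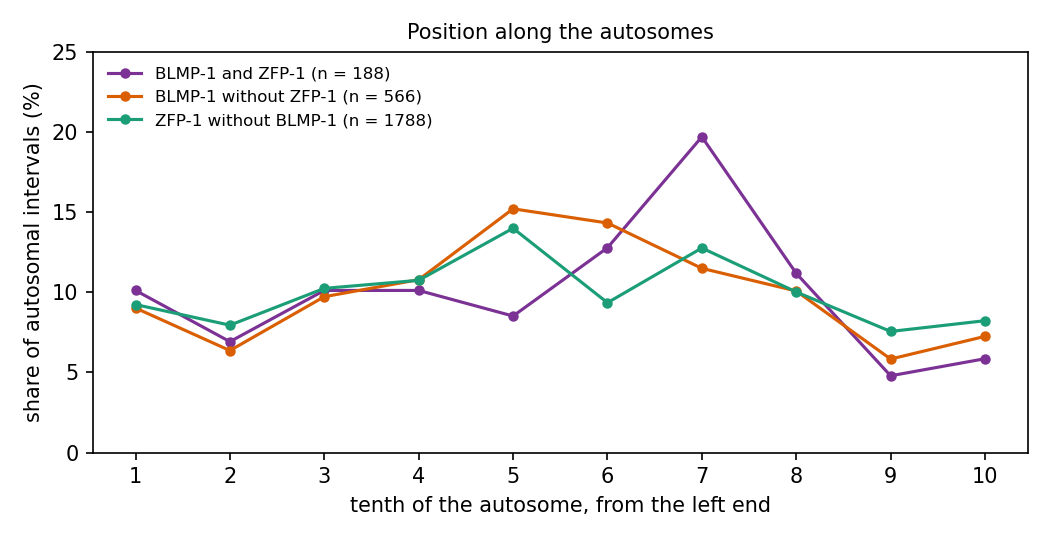
Share of the autosomal sites of each class in percent (y axis) in each of 10 equal bins of the chromosome length, counted from the left end (x axis), summed over the 5 autosomes. Shared sites (n = 188) reach 19.7% in bin 7, where BLMP-1-only sites (n = 566) reach 11.5% and ZFP-1-only sites (n = 1788) 12.8%.

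The neighborhood of the shared sites, chosen for holding ZFP-1, was richer in ZFP-1 peaks than that of BLMP-1-only sites, chosen for lacking it. Peaks within 5 kb of the edge of a site were counted, leaving out the peaks inside the site itself, which the rule had used. A separate ZFP-1 peak lay within 5 kb of 115 of the 230 shared sites (50%, interval 43.4% to 56.6%) and of 223 of the 724 BLMP-1-only sites (30.8%, 27.5% to 34.3%). The odds ratio was 2.25 (interval 1.64 to 3.08, adjusted p = 2.70e-06, two-sided Fisher's exact test, adjusted by Benjamini-Hochberg over 12 tests of neighboring peaks). The share was higher at shared sites on each of the 6 chromosomes, by the least on IV (42.9% of shared sites and 31.9% of BLMP-1-only sites) and by the most on X (50% and 23.4%, in the same order). The median distance to the nearest separate ZFP-1 peak was 5100.5 bp from a shared site and 11376 bp from a BLMP-1-only site. From a ZFP-1-only site it was 8042 bp.

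The neighborhood was also richer in BLMP-1 peaks than that of ZFP-1-only sites, which were chosen for lacking BLMP-1. A separate BLMP-1 peak lay within 5 kb of 65 shared sites (28.3%, interval 22.5% to 34.6%) and of 333 ZFP-1-only sites (15.2%, 13.7% to 16.7%), with an odds ratio of 2.21 (interval 1.59 to 3.03, adjusted p = 1.26e-05, Fisher's exact test). The share was again higher at shared sites on each of the 6 chromosomes. The median distance to the nearest separate BLMP-1 peak was 23104 bp from a shared site and 36370 bp from a ZFP-1-only site. From a BLMP-1-only site it was 21508.5 bp. ZFP-1 peaks also lay near sites that held ZFP-1 without BLMP-1, and BLMP-1 peaks near sites that held BLMP-1 without ZFP-1. A separate ZFP-1 peak was within 5 kb of 42.5% of ZFP-1-only sites, and a separate BLMP-1 peak within 5 kb of 32.3% of BLMP-1-only sites. These shares include sites with a separate peak of the other protein in that range. The same protein alone was nearby at 32.5% of ZFP-1-only sites and 17.3% of BLMP-1-only sites. Both contrasts above set sites chosen for holding a protein against sites chosen for lacking it. They therefore cannot be told apart from the nearness of peaks of the same protein to each other.

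Neither test against sites of the same protein passed at 5 kb. For a separate ZFP-1 peak within 5 kb, the 50% of shared sites and the 42.5% of ZFP-1-only sites gave an odds ratio of 1.35 (interval 1.02 to 1.79), which did not pass after adjustment (p = 0.0303, adjusted p = 0.107, Fisher's exact test). At 5 kb the share was higher at shared sites on 5 of the 6 chromosomes, and on IV it was lower (42.9% and 44.3%). Within 2 kb the difference did pass, with 36.1% of shared sites and 23.6% of ZFP-1-only sites (odds ratio 1.83, Fisher's exact test, adjusted p = 0.000329). Within 10 kb it did not pass, with 59.6% and 53.9% in the same order (odds ratio 1.26, Fisher's exact test, adjusted p = 0.412). For a separate BLMP-1 peak, the 28.3% of shared sites and the 32.3% of BLMP-1-only sites gave no difference that passed (odds ratio 0.82, interval 0.58 to 1.16, adjusted p = 0.382, Fisher's exact test).

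The other 4 proteins gave no difference that passed the test. A separate SIN-3 peak was within 5 kb of 20.0% of shared sites (interval 15% to 25.8%), 14.0% of BLMP-1-only sites (11.5% to 16.7%) and 19.5% of ZFP-1-only sites (17.9% to 21.2%). Against BLMP-1-only sites the odds ratio was 1.54 (interval 1.02 to 2.30, p = 0.0355, adjusted p = 0.107, Fisher's exact test). It passed when peaks up to 250 bp apart were merged (19.7% of shared sites and 12.6% of BLMP-1-only sites, with an odds ratio of 1.70 and adjusted p = 0.0384 by Fisher's exact test) and when shared sites with several other proteins were included (21.7% and 14.0% in the same order, with an odds ratio of 1.71 and adjusted p = 0.0217 by Fisher's exact test). Under every other setting tried, the SIN-3 difference from BLMP-1-only sites did not pass. Over the 10 alternatives its size ran from 1.25, within 10 kb, to 1.71, so the SIN-3 call depended on the setting. Shares for SCC-1, JMJD-2 and TOP-2 were 10.9%, 10.4% and 8.26% at shared sites, 8.01%, 8.56% and 5.11% at BLMP-1-only sites, and 10.6%, 10.0% and 6.14% at ZFP-1-only sites. Within 2 kb the odds ratio against BLMP-1-only sites was larger for JMJD-2 (6.09% of shared sites and 2.90% of BLMP-1-only sites, odds ratio 2.17, Fisher's exact test, adjusted p = 0.0993). For TOP-2 it was larger as well (4.35% and 1.66% in the same order, odds ratio 2.70, Fisher's exact test, adjusted p = 0.0718), and neither passed. Within 2 kb it was smaller for SIN-3 (1.26) and SCC-1 (1.14). Within 10 kb it was 1.05 for JMJD-2 and 1.09 for TOP-2. Sites that lie near each other share their neighbors and are not independent, and the accessibility of the surrounding chromatin, which could move with the number of peaks, was not tested.

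**Figure D4:**
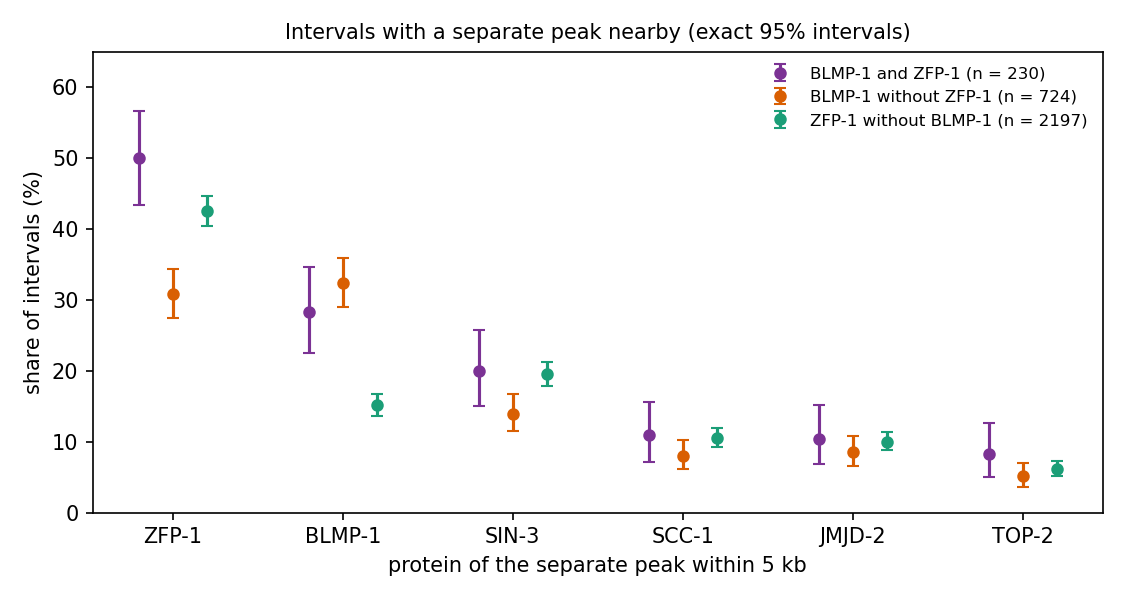
Share of sites in percent (y axis) with a separate peak of the named protein (x axis) within 5 kb, for the 230 shared sites, the 724 BLMP-1-only sites and the 2197 ZFP-1-only sites. Points are shares and bars exact 95% intervals. Shared sites stand at 50% for ZFP-1, above the 30.8% of BLMP-1-only sites, and at 28.3% for BLMP-1, above the 15.2% of ZFP-1-only sites. ZFP-1-only sites stand at 42.5% for ZFP-1, and BLMP-1-only sites at 32.3% for BLMP-1.

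The intervals near shared sites were of several kinds. An interval of any protein was within 5 kb of 158 shared sites (68.7%). A ZFP-1-only site was within that distance of 107, a BLMP-1-only site of 54, another interval with both proteins of 30, and an interval with neither of 66. The classes differ in size, with 2197 ZFP-1-only sites, 724 BLMP-1-only sites and 258 intervals with both proteins. The rest of the 5870 intervals held neither protein. The counts near shared sites were not tested against these sizes. Separate peaks of both proteins lay within 5 kb of 47 shared sites (20.4%), 109 BLMP-1-only sites (15.1%) and 221 ZFP-1-only sites (10.1%). The nearest other BLMP-1 interval also held ZFP-1 for 72 of the 230 shared sites (31.3%) and for 174 of the 724 BLMP-1-only sites (24.0%), given without a test because neighbors count each other. The median distance of a shared site to the next one was 103162 bp, and 55 shared sites had another within 20 kb. In the range used by the study for contacts between binding sites, more than 20 kb and less than 1 Mb, the shared sites formed 526 pairs on the same chromosome, from 45 on II to 139 on I.

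Within 5 kb of another shared site lay 29 shared sites, which formed 12 groups. Of these groups 9 had 2 members, 2 had 3, and the largest, on II from 1236532 to 1247363, had 5 in 10832 bp. It was singled out after the groups were seen. In this group the sites began at 1236532, 1237862, 1239608, 1244435 and 1246797, none held a further protein, and the ZFP-1 peak was wholly inside the BLMP-1 peak at all but the site at 1244435. The distances between midpoints there ranged from 5 to 136 bp. The closest pair of shared sites was 243 bp apart on X, from 15273626 to 15274542 and from 15274786 to 15276263, and the next shared site ended at 15277105, making a group of 3 in 3480 bp. To the left of this group a ZFP-1 peak from 15273351 to 15273535 lay 90 bp from the BLMP-1 peak of the first site and 90 bp from another BLMP-1 peak, from 15272731 to 15273260, and shared no base with either. The 1-Mb window with the most shared sites was on IV from 10000001 to 11000000, with 8 shared sites, 7 BLMP-1-only sites and 26 ZFP-1-only sites, and windows on X that began at 15100001 and 15200001 also held 8 shared sites. As the highest windows they exceed the mean of 2.30 per Mb by construction.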

How the data were processed

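ChIP-seq was performed by the authors in whole N2 L3 larvae with antibodies against 6 proteins, in 2 replicates each (12 samples). Reads were aligned to ce10, and per the methods peaks were called in each replicate with YAPC, or MACS2 for BLMP-1, and the replicates were combined with IDR (P-value threshold 0.01). BWA and MACS2 are the tools in the submitters' processing notes, with versions not given in the sources used here. The deposited lists hold chromosome, start and end of each peak. Track lines were skipped. The methods also describe removal of highly occupied regions, and it is not stated whether the deposited lists had this done. The title of each sample gave its protein.

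Here the peaks of all lists were merged where they shared at least 1 bp. Shares of sites were compared with Fisher's exact test, two-sided, with Benjamini-Hochberg adjustment over 4 tests of position and 12 of neighboring peaks and a threshold of 0.05. Sites were the units, so p-values cover counting error over sites, not error between replicates. Shared sites, comparison classes and measures were chosen with earlier results of these data known. Widths, overlaps, midpoint distances and further proteins at a site depend on the rule and were only described. Sites named are those with the most and fewest shared bases, the longest, those with TOP-2, those with the closest midpoints, the closest pair and the 1-Mb window with the most shared sites in steps of 100 kb. The group of 5 sites on II and bin 7 of the autosomes were singled out after their values were seen. The end of the last peak of the pooled lists stood for the end of a chromosome. Sequence and gene annotation of ce10 were not used here, so the planned comparisons of motifs, base composition and gene position were not run. Alternatives concerned merging, the limit on other proteins, wide peaks, distances, arms and neighboring sites. Coordinates count from 1. Procedures were tested on simulated data in which sites were independent, so this does not show the error rate for sites that share neighbors. Python 3.11.15, scipy 1.17.1, numpy 2.4.6 and matplotlib 3.10.9 were used.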

Additional observations from a re-analysis of the deposited data

How the results depend on the processing

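Among 150 tests with another setting, 146 gave the same call and 4 newly passed. For a separate SIN-3 peak within 5 kb against BLMP-1-only sites, these had odds ratios of 1.70 with peaks up to 250 bp apart merged and 1.71 with no limit on other proteins at shared sites. Over all 10 alternatives the SIN-3 value against BLMP-1-only sites ran from 1.25 to 1.71. For a separate ZFP-1 peak against ZFP-1-only sites, the odds ratio was 1.83 within 2 kb. It was 2.29 with 1 site counted per 10 kb (45.5% of shared sites and 26.7% of ZFP-1-only sites), but that setting removes ZFP-1-only sites for having another nearby, which lowers their share by construction, so this value does not bear on the difference. The same setting turned the odds ratio for a separate BLMP-1 peak against BLMP-1-only sites to 1.18 (22.5% and 19.7% in the same order), for the same reason. For the other 3 the cause was not tested. The odds ratio for a separate ZFP-1 peak against BLMP-1-only sites ran from 1.71 to 2.99 over 10 alternatives (highest adjusted p = 0.00293, Fisher's exact test), and that for a separate BLMP-1 peak against ZFP-1-only sites from 1.78 to 2.45 (highest adjusted p = 0.00768, Fisher's exact test). The number of shared sites ranged from 191, with none of SIN-3, SCC-1 and JMJD-2, to 258, with no limit on them. No paired analysis was possible because each list combines its 2 replicates, and for the same reason no replicate could be left out. A stricter peak threshold could not be tried, since the lists carry no scores, and limits from depth could not be assessed. Other window sizes for motifs and gene position were not run, as these comparisons were not made.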

Other observations

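The 28 intervals with both BLMP-1 and ZFP-1 that the rule left out held SIN-3, SCC-1 and JMJD-2 together in 15 cases, SCC-1 with SIN-3 in 7, JMJD-2 with SCC-1 in 5 and JMJD-2 with SIN-3 in 1, and none held TOP-2. They were spread over the chromosomes, with 6 each on II and IV and 4 each on I, III, V and X. Their BLMP-1 peaks had a median width of 259.5 bp, compared with 371 bp at the shared sites and 326.5 bp at BLMP-1-only sites. These widths are given as values without a test.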
